A study of Mus musculus with 16 samples.

Results

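The 957 chromatin regions described here opened strongly when wild-type germinal center B cells labelled CC were set against those labelled CB, and they were chosen from 82188 accessible regions (peaks) of mouse spleen B cells. A peak was a member when its mean accessibility in wild-type CC replicates 1 and 2 was at least 10 CPM (the count divided by the library's total count and multiplied by 1000000) and at least 3 times the mean in wild-type CB replicates 1 and 2. Accessibility was measured by Omni-ATAC, in which a transposase cuts open chromatin and leaves sequencing adapters there. There were 16 libraries of C57BL/6 mice aged 8 to 10 weeks, 4 each of Smarca4+/+ (WT) CB, WT CC, Smarca4+/- (HET) CB and HET CC. All came from spleen. HET cells carry 1 intact and 1 altered copy of Smarca4, which encodes BRG1, the motor of the BAF complex. The labels give neither the altered part of the gene, nor a Cre driver, nor a sort gate, and do not spell out CB and CC, read here as centroblast and centrocyte. They do not say that each replicate was a different animal, so the p-values speak for the spread among these libraries alone, part of which may be technical.

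Centroblasts are the dividing germinal center B cells of the dark zone, where antibody genes are mutated. Centrocytes are their descendants in the light zone, which test their receptors against antigen, seek help from T cells, and either return to division or leave as memory or plasma cells. The BAF complex slides or ejects nucleosomes with energy from ATP, and distal regulatory regions, more than the promoters of constantly used genes, are known to depend on it for access.

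The sequences that the files allow to be shown are those of promoter windows, from 250 bases before to 50 bases after a gene's annotated start, as given by RefSeq for GRCm38.p6, the assembly that mm10 denotes. Such a window shared at least 150 bases with 111 members (11.6%) and with 11.3% of all peaks. The Sox4 window is shown because its peak was 1 of the 2 members lower in HET CC, the windows of Cobll1, Maml3, Dse and Gpr132 because these are the genes, of the 5 with the most members, that had a member at such a window (Slc16a7 had none), and those of Themis and Nkg7 because they mark T cells and cytotoxic lymphocytes. They were picked after values had been seen. Each is the part of the window inside the peak, 5′ to 3′ on the gene's strand, and capitals mark the motif letters named after it.
Sox4: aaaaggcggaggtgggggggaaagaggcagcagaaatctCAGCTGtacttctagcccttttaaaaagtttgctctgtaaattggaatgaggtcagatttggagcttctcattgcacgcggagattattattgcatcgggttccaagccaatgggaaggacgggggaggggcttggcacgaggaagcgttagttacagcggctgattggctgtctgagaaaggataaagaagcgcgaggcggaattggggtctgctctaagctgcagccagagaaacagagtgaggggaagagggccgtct
Cobll1: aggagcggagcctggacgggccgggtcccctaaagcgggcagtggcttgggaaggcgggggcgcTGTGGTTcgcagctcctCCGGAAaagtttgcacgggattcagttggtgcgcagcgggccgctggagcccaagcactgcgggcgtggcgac
Maml3: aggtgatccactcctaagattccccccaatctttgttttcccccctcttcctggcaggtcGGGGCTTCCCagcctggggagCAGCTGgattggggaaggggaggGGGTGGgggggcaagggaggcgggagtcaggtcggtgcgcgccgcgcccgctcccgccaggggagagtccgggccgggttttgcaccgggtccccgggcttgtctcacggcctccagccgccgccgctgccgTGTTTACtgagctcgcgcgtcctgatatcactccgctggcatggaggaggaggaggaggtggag
Dse: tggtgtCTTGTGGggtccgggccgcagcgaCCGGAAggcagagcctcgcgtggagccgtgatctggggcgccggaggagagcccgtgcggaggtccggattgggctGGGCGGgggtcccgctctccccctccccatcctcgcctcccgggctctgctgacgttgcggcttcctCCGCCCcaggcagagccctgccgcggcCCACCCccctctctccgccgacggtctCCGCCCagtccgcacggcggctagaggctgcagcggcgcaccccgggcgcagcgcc
Gpr132: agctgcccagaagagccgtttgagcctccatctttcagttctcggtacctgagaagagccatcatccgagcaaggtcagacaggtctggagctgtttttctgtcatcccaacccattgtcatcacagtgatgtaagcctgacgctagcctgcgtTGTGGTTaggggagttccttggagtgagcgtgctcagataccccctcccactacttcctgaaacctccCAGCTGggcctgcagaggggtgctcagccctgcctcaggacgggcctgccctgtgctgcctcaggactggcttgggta
Themis: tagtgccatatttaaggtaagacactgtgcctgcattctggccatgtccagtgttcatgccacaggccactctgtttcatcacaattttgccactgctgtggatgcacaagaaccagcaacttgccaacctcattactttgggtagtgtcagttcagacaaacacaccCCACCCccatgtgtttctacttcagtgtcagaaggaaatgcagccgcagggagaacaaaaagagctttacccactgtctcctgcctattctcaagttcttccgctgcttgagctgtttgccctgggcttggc
Nkg7: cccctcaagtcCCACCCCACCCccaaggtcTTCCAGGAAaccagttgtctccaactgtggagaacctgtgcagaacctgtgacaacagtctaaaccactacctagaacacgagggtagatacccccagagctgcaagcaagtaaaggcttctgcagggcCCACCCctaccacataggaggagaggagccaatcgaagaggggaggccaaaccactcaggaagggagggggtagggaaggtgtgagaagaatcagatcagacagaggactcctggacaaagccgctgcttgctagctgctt
The Sox4 window, chr13:28953650-28953949 on the minus strand, held 1 E-box (CAGCTG). That of Cobll1, chr2:65238742-65238895, minus strand, held 1 RUNX (TGTGGTT) and 1 ETS (CCGGAA) match. Maml3, chr3:52104957-52105256, minus strand, held 1 match each for KLF (CCACCC), NF-kB, the E-box and FOXO (TGTTTAC). Dse, chr10:34207186-34207468, minus strand, held 3 SP (GGGCGG) matches and 1 each for ETS, KLF and CTCF (CCACNAG). Gpr132, chr12:112860867-112861166, minus strand, held 1 RUNX match and 1 E-box. Themis, chr10:28668145-28668444, plus strand, held 1 KLF match, and Nkg7, chr7:43436888-43437187, plus strand, 3 KLF matches and 1 STAT (TTCNNNGAA) match. The windows ran from GC-poor to GC-rich. Themis had 49.3% G and C with 2 CG pairs, Sox4 52.0% with 12, Gpr132 57.7% with 7, and Dse 76.0% with 33.

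Over the 111 members at such windows, RUNX letters stood in 14 (12.6%), against 4.04% of the 9302 windows at any peak and 5.27% of all 32851 windows. AP-1 letters (TGANTCA) stood in 9 (8.11%), against 4.63% and 7.81%. ETS letters ran the other way, in 11 members (9.91%) against 27.8% and 14.9%, and SP letters stood in 52 (46.8%) against 66.2% and 35.7%. KLF letters stood in 52 (46.8%) against 37.0% and 31.5%, and those of NF-kB in 10 (9.01%) against 7.67% and 5.55%. FOXO letters stood in 6 (5.41%) against 2.49% and 3.65%. The other motifs searched were PU.1 (GAGGAAGT), IRF, TCF/LEF (CTTTGA) and OCT (ATGCAAAT). Their shares among members were 1.8%, 5.41%, 14.4% and 0.901%, against 3.69%, 2.96%, 11.7% and 1.8% at any peak and 3.2%, 3.44%, 16% and 1.74% of all windows. The E-box stood in 21.6% (against 14.6% and 16.3%), CTCF letters in 20.7% (16.9% and 15.3%) and STAT letters in 10.8% (6.59% and 8.3%). Both strands were searched over the whole window, and overlapping matches, as of SP with KLF, counted for each motif. Member windows had a median of 58.3% G and C and 12 CG pairs, against 61.3% and 21 at any peak and 52.7% and 7 over all windows. The part of base composition in these shares was not tested. A match describes these letters only.

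Members were mostly distal. Near a gene end (at most 1 kb from it) were 137 (14.3%, against 21.1% of all peaks), and inside a gene were 445 (46.5%, against 45.9%), outside but within 50 kb were 217 (22.7%, against 24%), and more than 50 kb from any protein-coding gene were 158 (16.5%, against 9.02%). They were assigned to 594 genes, 460 of which had 1 member and 17 had 4 or more. Neighbouring members were common, with 226 (23.6%) within 10 kb of another. The share of peaks that were members was 1.16% overall and ran from 0.63% on chromosome 19 and 0.744% on the X chromosome to 1.96% on chromosome 10 and 2.09% on chromosome 13.

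The choosing values are a description only. Members had a median of 13 CPM in the choosing WT CC libraries and 2.74 CPM in the choosing WT CB libraries, a median ratio of 5.07, and ratios reached 21.7. At the edge of the fold rule, peaks of Cyria (ratio 3.0141) and Arhgap45 (3.0232) were just inside and those of Nr4a1 (2.9989) and Lrrc8b (2.9953) just outside. At the edge of the level rule, a Ptpn14 peak (10.0073 CPM) and chr4:56113743-56114243 (10.0117) were inside, and chr15:60187241-60187741 (9.9941) and a Tdrp peak (9.9743) outside. In WT replicates 3 and 4 the median ratio was 4.56, and 943 members (98.5%) had a ratio of 2 or more. There, 622 members met the whole rule again, which is 65.0% of the members and 63.3% of the 983 peaks meeting it in those libraries.

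The 12 libraries that did not choose the members were used for every test. These were WT replicates 3 and 4 and HET replicates 1 to 4, in CB and in CC. Their totals were 35926306 to 51011923 counts in CB and 3575423 to 7474760 in CC, so that a median member held 90 to 104 counts in a CB library and 46 to 67 in a CC library. The peaks near Smarca4 itself summed to 184.1 and 171.4 CPM in WT CB replicates 3 and 4 and to 164.9 to 169.9 in HET CB. Every HET CB value lay below both WT values. In CC they summed to 147.7 and 173.6 in WT and to 133.9 to 158.2 in HET, which overlap. These sums do not check the genotype, since accessibility of a gene does not show its altered copy. Peaks were tested with edgeR's quasi-likelihood test, p-values were adjusted by Benjamini-Hochberg over all 82188 peaks, and a member counted as changed when its adjusted p was under 0.05.

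In these held-out libraries the opening from CB to CC recurred at nearly every member in both genotypes. In WT, 955 of 957 members were higher in CC, where 23.8% of all peaks were called higher, and 0 were lower (20.2% of all peaks were). At an unadjusted p below 0.05, 957 were higher and 0 lower, against 22031 higher and 19775 lower of all 82188 peaks. DESeq2 called 957 members higher and 0 lower. The median log2 change was 2.23, a 4.68-fold rise, and single members ran from 0.75 to 3.94. In HET, 956 rose, where 30.8% of all peaks were called higher, with a median of 2.21 (4.63-fold). There, 0 fell (28.1% of all peaks did). In HET at an unadjusted p below 0.05, 956 were higher and 0 lower, against 26720 higher and 24778 lower of all peaks. DESeq2 also called 956 members higher and 0 lower. All 6 CC values lay above all 6 CB values at 942 members (98.4%), against 20.5% of all peaks. The genotype comparisons given later use these same libraries, so they share their WT and HET libraries with this one. The labels do not say that WT replicates 3 and 4 came from other animals than replicates 1 and 2. The held-out WT libraries may thus not be independent of the choosing ones. Peaks near Smarca4 summed to 184.4 and 184.1 CPM in WT CB replicates 1 and 3 and to 172.8 and 171.4 in replicates 2 and 4. WT CC replicates 1 to 4 stood at 145.5, 156.3, 147.7 and 173.6. Independence was not tested.

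The 8 largest openings by the fit of WT replicates 3 and 4 lay away from gene ends. The largest was inside Adgrv1, a very large adhesion receptor gene, 41652 bp from its nearer end (chr13:81136470-81136970). That peak stood at 0.88 and 1.06 CPM in WT CB replicates 3 and 4 and at 14.82 and 14.13 in the matching WT CC libraries. HET CB replicates 1 to 4 stood at 0.7, 0.61, 0.75 and 0.57 and HET CC at 12.17, 7.89, 14.31 and 8.95. All CC libraries were high and all CB libraries near 1 CPM or below (log2 3.94, SE 0.33, adjusted p = 4.26e-12 in WT, and 4.02, SE 0.232, adjusted p = 6.32e-18 in HET, edgeR). A peak inside Palld, which encodes an actin-binding scaffold protein, rose from 1.01 ± 0.339 (SD, n = 2) to 13.5 ± 0.894 CPM in WT (log2 3.78) and from 0.657 ± 0.124 (n = 4) to 12.7 ± 2.97 in HET (4.26). A peak inside Scn3a, a sodium channel gene, rose by 3.78 in WT and 3.46 in HET, and one inside Itpk1, an inositol phosphate kinase gene, by 3.67 and 3.35. A peak 35948 bp from Spaca1 rose by 3.72 and 3.53. The other 3 had no gene within 50 kb, with Nek10, Cxadr and Cyp7b1 nearest, and rose by 3.89, 3.73 and 3.72 in WT and by 4.14, 3.96 and 4.17 in HET.

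**Figure D1:**
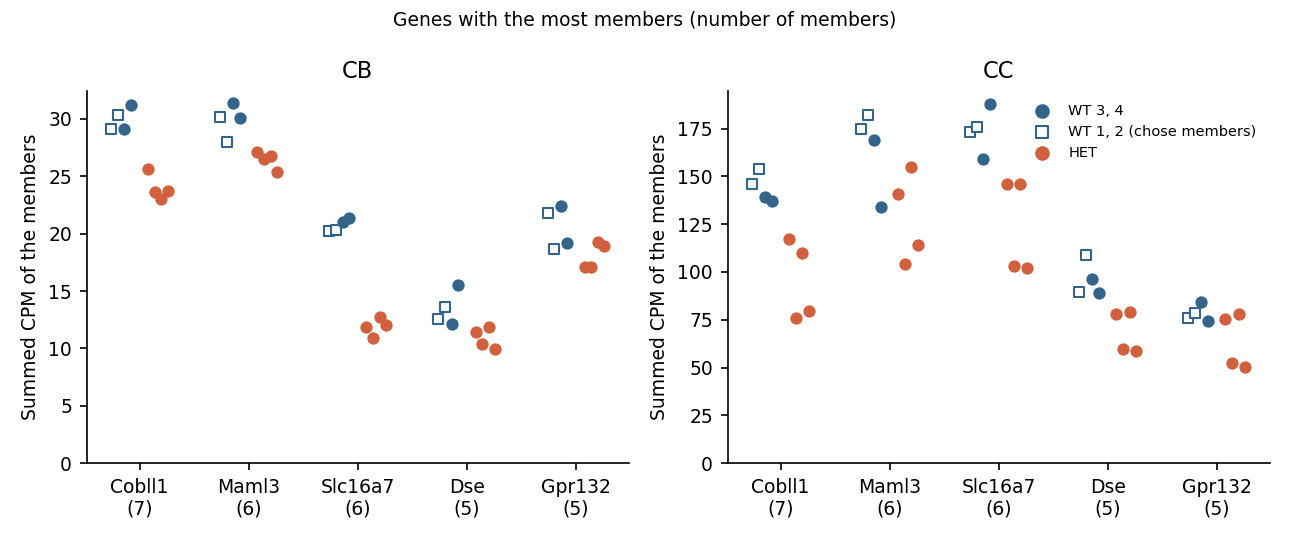
Summed CPM of the members at the 5 genes with the most of them, for each CB library (left) and CC library (right), with the number of members under the gene; filled circles are the libraries tested and open squares the WT libraries that chose the members. CC values lie several-fold above CB values at each gene, and HET lies lowest relative to WT at Slc16a7 in CB.

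Cobll1, which encodes a cordon-bleu-like actin regulator, had the most members, 7 of its 16 peaks. The members' summed CPM was 29.1 and 31.2 in WT CB replicates 3 and 4 and 139 and 137 in WT CC, and 25.6, 23.6, 23.0 and 23.7 in HET CB and 117, 75.9, 110 and 79.8 in HET CC replicates 1 to 4. HET libraries lay below both WT libraries in each state. The 7 members opened by 1.66 to 3.21 (log2) in WT and 0.83 to 3.18 in HET, and their log2 change in HET CC ran from -1.12 to -0.25, with none called. The strongest opening, 49882 bp from the gene end at chr2:65189266-65189766, went from 3.92 ± 0.837 to 35.3 ± 4.28 CPM in WT (n = 2) and from 2.20 ± 0.351 to 20.1 ± 7.29 in HET (n = 4).

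Maml3 encodes a mastermind-like coactivator of Notch signaling, and 6 of its 26 peaks were members. Its 4 members nearest the gene end, between 302 and 3058 bp from it, lay beside one another and included the peak with the promoter window shown above. The summed CPM was 31.4 and 30.1 in WT CB and 169 and 134 in WT CC. HET CB replicates stood at 27.1, 26.5, 26.8 and 25.4 and HET CC replicates at 141, 104, 155 and 114. The HET and WT values overlapped in CC, and in CB all 4 HET values lay below both WT values. The member 14165 bp from the other end of the gene opened least (log2 0.84, SE 0.323, adjusted p = 0.0311 in WT, edgeR).

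Dse encodes dermatan sulfate epimerase and had 5 members of 13 peaks, opening by 2.53 to 3.44 in WT and 2.32 to 3.28 in HET. Their summed CPM was 12.1 and 15.5 in WT CB, 11.4, 10.4, 11.9 and 9.92 in HET CB, 96.5 and 89.0 in WT CC and 78.0, 59.7, 78.9 and 58.9 in HET CC. All HET values were below both WT values in each state, narrowly in CB. Gpr132, a G protein-coupled receptor gene, also had 5 members of 13 peaks and opened by 1.5 to 2.44 in WT. Its summed CPM was 22.4 and 19.2 in WT CB, 17.1, 17.1, 19.3 and 18.9 in HET CB, 84.2 and 74.1 in WT CC and 75.2, 52.3, 78.1 and 50.1 in HET CC, so the genotypes overlapped in both states. Genes with 4 members included Frmd4b, Tent5a, Dthd1, Itga2, Etv1, Ski, Lef1, Tiam1, Bcor, Chrm3 and Celf4.

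Read against 15 lists of textbook genes, members were near 38 of the 270 list genes, as 54 of the 2862 peaks near a list gene. The germinal center program, a list of genes tied to this reaction (Bcl6, S1pr2 and others), had 0 members among 253 peaks. Of those peaks, 127 were called lower in WT CC and 15 higher. The list includes Cd38, whose peaks went the other way, from 138.97 to 149.51 CPM in WT CB to 176.49 to 197.74 in WT CC. The sum of the whole list ran over 4513.5 to 4552.2 CPM in WT CB and 3098.1 to 3314.1 in WT CC. The 211 peaks near genes of the BAF complex and the 49 near interferon response genes held 0 members, where the share over all peaks was 1.16%. At that share so few peaks would hold few members or none, so these counts show no lack of opening. In WT CC, 46 of the 211 peaks were called higher and 46 lower, and 16 of the 49 were called higher and 12 lower.

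Genes of lymphocyte migration and egress held 14 members among 218 peaks (6.42%, against 1.16% of all peaks). Those described here lay near S1pr1, the receptor that guides lymphocytes out of tissues, Itgb7, Itga4, Ccr7, Klf2 and Selp. A peak inside Selp, the P-selectin gene, stood at 3.02 and 3.15 CPM in WT CB and 23.77 and 26.93 in WT CC replicates 3 and 4, and at 2.27, 1.46, 2.54 and 1.43 in HET CB and 24.51, 17.66, 22.03 and 16.17 in HET CC. All CC values lay far above all CB values, and the peak opened by 3.08 (SE 0.245) in WT and 3.39 (SE 0.17) in HET. In CB all HET values lay below both WT values without passing (log2 -0.68, SE 0.205, adjusted p = 0.486, edgeR).

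The list of memory and naive B cell genes held 11 members among 367 peaks (3.0%). Those described here lay near Bach2, Bcl2, Foxp1, Klf2, Tlr7 and Vim. Bcl2 encodes an inhibitor of cell death, and its member, 62823 bp from a gene end, opened by 2.86 in WT and 2.84 in HET. Lymphoid transcription factors held 25 among 1077 peaks (2.32%), near 18 genes. A member 31873 bp from Klf3 opened by 2.81 in WT and 2.99 in HET, and one 198 bp from Ikzf2, which encodes Helios, by 2.79 and 2.44. Light zone genes held 1 member among 236 peaks (0.424%), at Il4ra (2.17 in WT), and dark zone genes 1 among 103 (0.971%), at Foxo1 (1.43 in WT). Both shares lay below the 1.16% of all peaks. B cell receptor signaling genes held 3 members among 361 peaks (0.831%), all at Prkch, a protein kinase C gene, which opened by 1.90 to 3.27 in WT. Plasma cell genes held 2 among 97, at Prdm1, which encodes BLIMP1 (1.94 in WT), and 47509 bp from Sdc1 (2.16 in WT).

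Marker loci of other cell types opened too. T cell marker genes had 9 members among 116 peaks (7.76%), at Tcf7, Lef1, Themis and Cd5, and 80 of the 116 peaks were called higher in WT CC and 7 lower. None of the members lay near Cd3d, Cd3e, Cd3g, Cd4, Cd8a or Cd8b1. The peaks near Cd3e summed to 2.05 to 2.56 CPM in WT CB and 7.37 to 12.59 in WT CC, those near Cd8a to 1.15 to 1.42 and 6.40 to 14.88, and those near Cd4 to 9.04 to 11.52 and 4.47 to 8.00. NK cell and innate lymphoid markers had 4 members among 51 peaks (7.84%), at Klrk1, Klrd1, Gzmb and Nkg7. Myeloid markers had 1 among 46, at Tyrobp, stromal and endothelial markers 1 among 41, at Pecam1, and erythroid markers 0 among 16. The summed level of the T cell list ran over 459.6 to 469.4 CPM in WT CB and 440.9 to 448.9 CPM in HET CB. In CC it ran over 799.8 to 896.3 CPM in WT and 660.7 to 783.4 CPM in HET, and 0 of its 17 genes with a peak were at 0 in any library. In bulk samples, fewer cells of a type and less accessibility per cell cannot be told apart.

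Members were less accessible in HET CB than in WT CB. Counts in members made up 0.306% and 0.312% of the library in WT CB replicates 3 and 4 and 0.264%, 0.234%, 0.254% and 0.234% in HET CB replicates 1 to 4, so that all HET libraries lay below both WT libraries. The mean was 0.309% ± 0.00424 (SD, n = 2) in WT and 0.2465% ± 0.015 (n = 4) in HET. The choosing WT CB libraries held 0.294% and 0.311%. Of the 957 members, 888 (92.8%) had a log2 change below 0, with a median of -0.36 (0.777-fold), where the median of all peaks was -0.01 and 53.0% were below 0. Peaks that met the opposite rule, 1383 that closed at least 3-fold in CC, had a median of 0.01. The 3072 peaks that opened 1.5 to 3 times had a smaller shift, -0.06, but 71.0% of them were below 0. The direction was thus not particular to members.

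Few single members passed the test in CB. The counts were 5 lower (0.00973% of all peaks were called lower) and 0 higher (0.0% of all peaks). At an unadjusted p below 0.05, 379 members were lower and 1 higher, against 3055 lower and 1218 higher of all 82188 peaks. DESeq2 called 26 members lower and 0 higher. The CB libraries fitted alone called 22 lower. Shares over all peaks are not given here for the DESeq2 and CB-alone counts. At 485 members (50.7%) all 4 HET CB values lay below both WT values, against 12.3% of all peaks, and at 3 all lay above, against 8.63%. Of the peaks that opened 1.5 to 3 times, 24.3% had all HET CB values below both WT values and 4.36% all above. The median log2 change of each HET CB library against WT replicates 3 and 4 was -0.24, -0.41, -0.30 and -0.44.

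**Figure D2:**
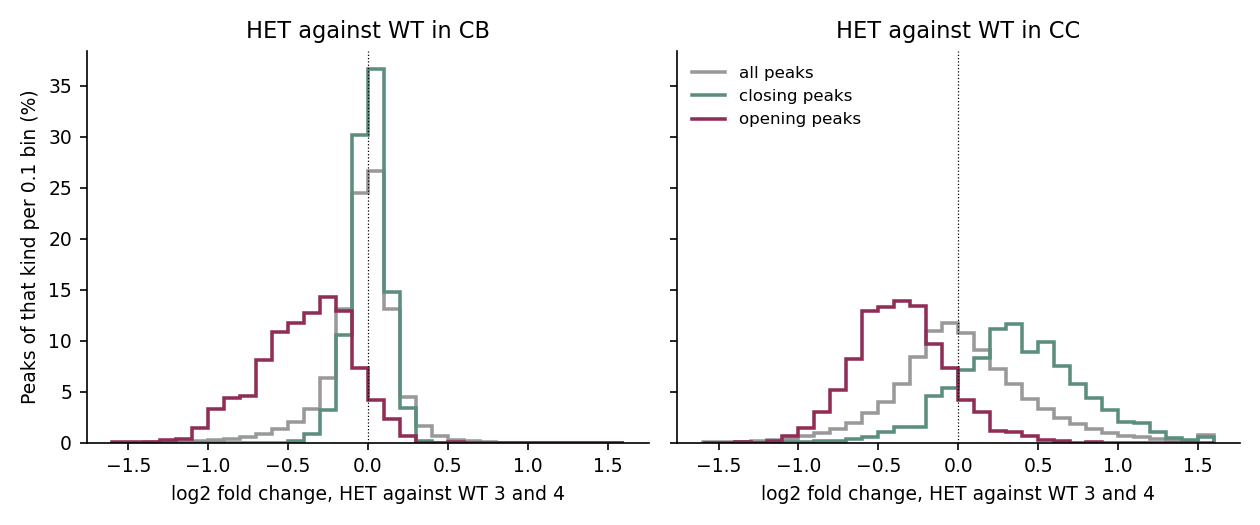
Distribution of the log2 change of HET against WT replicates 3 and 4 in CB (left) and CC (right), as the percent of peaks per bin of 0.1, for the 957 opening peaks, the 1383 closing peaks and all peaks; the outermost bins also hold values beyond them. The opening peaks lie to the left of 0 in both states (medians -0.36 and -0.35), and the closing peaks lie near 0 in CB (0.01) and to the right in CC (0.37).

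Members were also less accessible in HET CC. Library totals moved with genotype in both states, as given further on. Counts in members made up 1.373% and 1.337% of WT CC replicates 3 and 4 and 1.222%, 0.96%, 1.243% and 0.894% of HET CC replicates 1 to 4, again with all HET libraries below both WT libraries. The mean was 1.355% ± 0.0255 (SD, n = 2) in WT and 1.08% ± 0.179 (n = 4) in HET, and the choosing libraries held 1.404% and 1.545%. A log2 change below 0 was found at 855 members (89.3%, against 49.8% of all peaks), with a median of -0.35 (0.782-fold), where all peaks had 0.00 and the closing peaks 0.37. The shift was not particular to members. The 3072 peaks that opened 1.5 to 3 times had a median of -0.19 in HET CC, with 82.1% below 0. At 273 members (28.5%) all HET CC values lay below both WT values, against 8.09% of all peaks, and at 10 all lay above, against 10.7%. Of the peaks that opened 1.5 to 3 times, 22.7% had all HET CC values below both WT values and 2.15% all above. Below 0 in both CB and CC were 798 members (83.4%), against 29.3% of all peaks and 7.23% of the closing peaks. Lower without overlap in both states were 147 members (15.4%), against 1.58% of all peaks and 6.35% of the peaks that opened 1.5 to 3 times.

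In CC, 2 members (0.209%) were called lower (0.0365% of all peaks were) and 0 higher (0.0475% of all peaks). Of the peaks that opened 1.5 to 3 times, 11 (0.358%) were called lower and 0 higher. At an unadjusted p below 0.05, 293 members were lower and 4 higher, against 5443 lower and 5632 higher of all 82188 peaks. DESeq2 called 53 lower, of 898 members with an adjusted p, and 0 higher. Its share over all peaks is not given here. Leaving out 1 library gave between 0 (without HET CC replicate 2 or WT CC replicate 4) and 27 lower calls (without HET CC replicate 1), and 26 without HET CC replicate 3. The 4 HET CC libraries differed among themselves. Against WT replicates 3 and 4, members had median log2 changes of -0.13 and -0.11 in HET replicates 1 and 3 and of -0.47 and -0.58 in replicates 2 and 4.

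The totals of the HET CC libraries, 5310327 to 7474760 counts, all lay above those of the WT CC libraries, 3494356 to 3750936, so genotype and library total cannot be told apart in CC. With the log2 library total as a covariate, chosen after the data had been seen, the CC median of the members turned to 0.22, 305 were below 0 and 0 were called. In CB the totals of WT (31696941 to 38798802 counts) and HET (38716281 to 51011923) overlapped only where HET replicate 1 lay just under WT replicate 3, and the other 3 HET libraries lay above every WT library. The CB median was -0.16 with the covariate, 680 were below 0 and 0 were called. HET CB replicate 1 and WT CB replicate 3 had nearly the same total (38716281 and 38798802), and between these 2 single libraries members had a median log2 difference of -0.23, with 728 (76.1%) below 0, against 50.1% of all peaks. The CC libraries nearest in total, HET replicate 3 (5310327 counts) and WT replicate 4 (3750936), still differed in total, and between them the members' median was -0.09, with 569 (59.5%) below 0, against 47.3% of all peaks.

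A further split ran through the replicates. The peaks within Firre, an X-linked noncoding RNA gene, summed to 111.8 and 117.7 CPM in WT CB replicates 1 and 3 and 128.3 and 116.3 in HET CB, against 74.9, 74.7, 82.1 and 73.7 in replicates 2 and 4. HET CC replicates 1 and 3 stood at 180.8 and 162.3 and replicates 2 and 4 at 78.1 and 68.3, while WT CC replicates 1 to 4 stood at 172.8, 163.4, 149.1 and 123.7. The labels name no batch or sex. With HET replicates 1 and 3 only, the members' median was -0.28 in CB (2 called lower) and -0.16 in CC (0). With replicates 2 and 4 only, it was -0.45 in CB (20) and -0.57 in CC (125). These subsets were chosen after the data had been seen. The part of this split in the genotype result was not tested.

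Summed levels of some marker lists moved with genotype as well. In CB, the T cell list (440.9 to 448.9 CPM in HET, 459.6 to 469.4 in WT) and the myeloid list (269.4 to 273.9 against 283.6 to 288.9) were lower in every HET library than in any WT library, and the NK cell, erythroid, stromal and germinal center lists overlapped. In CC, the T cell list lay lower in every HET CC library than in any WT CC library, and the germinal center program higher (3327.7 to 3717.2 CPM in HET CC, against 3098.1 to 3314.1 in WT CC). The stromal and endothelial list was also lower without overlap in HET CC (264.4 to 282.3 CPM, against 287.2 to 317.1), while the NK cell, myeloid and erythroid lists overlapped. Without the 15 members near a marker gene of another cell type, the other 942 members had medians of -0.36 in CB and -0.36 in CC. Those 15 are 1.57% of the members, and leaving out so few can hardly move a median. For those 15 members the medians were -0.60 and -0.34. The part of other cell types in the genotype result was not tested.

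**Figure D3:**
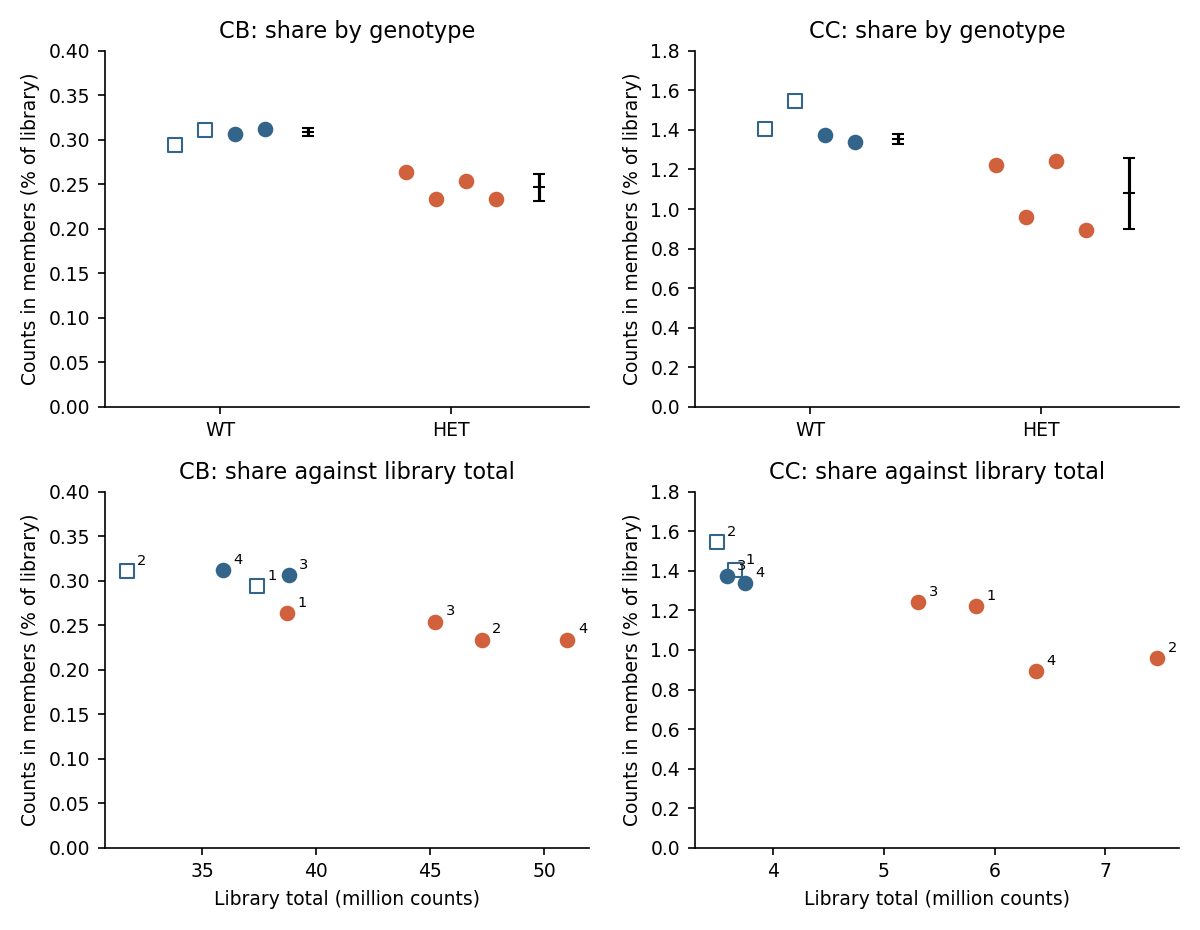
Percent of each library's counts that fell in members, for CB (left) and CC (right), by genotype (top, with the mean ± SD of the libraries tested) and against the library total (bottom, in units of 1000000 counts, with replicate numbers); filled circles are libraries tested, open squares the WT libraries that chose the members, blue is WT and orange HET. HET libraries lie below WT in both states (0.234 to 0.264% in CB, 0.894 to 1.243% in CC), and the HET CC totals do not overlap those of WT.

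By how strongly a member opened, the median genotype change spread more widely in CB than in CC. For the 293 members with a choosing ratio of 3 to 4, the median log2 change of HET was -0.23 in CB and -0.33 in CC. It was -0.31 and -0.34 for the 303 members with ratios of 4 to 6, -0.52 and -0.42 for the 246 with 6 to 9, and -0.63 and -0.38 for the 115 with 9 and over. These groups differed in CB level too. Their median in WT CB replicates 3 and 4 fell from 4.04 CPM through 2.77 and 1.92 to 1.36. By place, the CB median was -0.22 within 1 kb of a gene end, -0.37 inside genes, -0.41 outside within 50 kb and -0.48 beyond. The CC medians were -0.31, -0.35, -0.37 and -0.40. Neither order was tested.

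**Figure D4:**
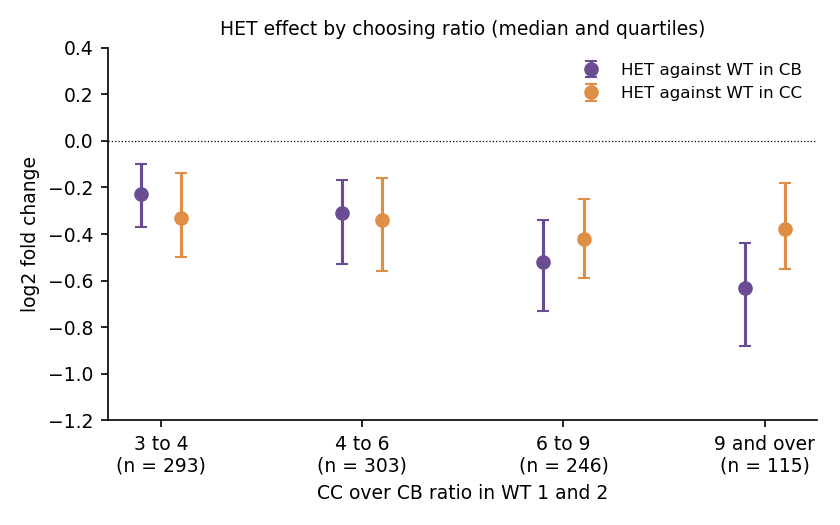
Median log2 change of HET against WT replicates 3 and 4 over the members, grouped by their CC over CB ratio in WT replicates 1 and 2, with bars from the lower to the upper quartile of the members. The CB medians go from -0.23 to -0.63 and the CC medians from -0.33 to -0.38, with a low of -0.42.

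The members called lower in HET CB included a pair of neighbouring peaks at an end of Slc16a7, which encodes a monocarboxylate transporter. The first, 42 bp from the gene end at chr10:125389378-125389878, stood at 4.63, 4.76, 5.08 and 4.82 CPM in WT CB replicates 1 to 4 and at 2.61, 2.16, 2.65 and 2.51 in HET CB. In CC it stood at 42.86, 40.35, 38.60 and 46.92 in WT and 35.14, 21.94, 30.88 and 21.67 in HET. No HET value reached the values of WT replicates 3 and 4, the libraries tested, in either state. The log2 change was -0.99 in CB (SE 0.168, adjusted p = 0.0204, edgeR) and -0.69 in CC (SE 0.167, adjusted p = 0.076). The second, inside the gene near the same end (chr10:125388765-125389265), fell in CB by 0.86 (SE 0.153, adjusted p = 0.0218), from 4.94 ± 0.174 (n = 2) to 2.69 ± 0.294 CPM (n = 4). All 6 members of Slc16a7 had HET CB values below both WT values, with log2 changes from -0.99 to -0.63. Their summed CPM was 21.0 and 21.4 in WT CB, 11.9, 10.9, 12.7 and 12 in HET CB, 159 and 188 in WT CC, and 146, 103, 146 and 102 in HET CC.

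A peak in Chrm3, a muscarinic acetylcholine receptor gene, 195795 bp from its nearer end at chr13:10071031-10071531, stood at 5.83, 5.27, 5.80 and 6.15 CPM in WT CB and 3.20, 3.28, 3.67 and 3.33 in HET CB. The HET values were close together and all below WT replicates 3 and 4 (log2 -0.82, SE 0.15, adjusted p = 0.0301, edgeR), and in CC the change was -0.49 (adjusted p = 0.19). A peak with no gene within 50 kb, chr10:98684021-98684521, 230359 bp from Atp2b1, stood at 5.59, 7.10, 6.16 and 7.85 CPM in WT CB and 4.60, 3.51, 3.41 and 3.80 in HET CB (log2 -0.87, SE 0.15, adjusted p = 0.0204). Another, chr1:51584847-51585347, 106622 bp from Nabp1, stood at 4.12, 4.89, 5.23 and 4.68 in WT CB and 3.23, 2.39, 2.17 and 2.98 in HET CB (-0.88, SE 0.163, 0.0301). At both, HET lay below WT in CC too, by -0.70 (adjusted p = 0.0908) and -0.72 (0.0857). Each of these 5 calls was lost, with the direction kept, without WT CB replicate 3 (adjusted p from 0.0631 to 0.775), without WT CB replicate 4 (0.431 to 1.0) and without HET CB replicate 2 (0.158 to 0.233). Without HET CB replicate 3, or without HET CB replicate 4, 2 members were called lower.

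In CC, a peak 18195 bp from Sub1, which encodes a transcriptional coactivator (chr15:12013983-12014483), stood at 20.20, 16.88, 26.29 and 29.33 CPM in WT replicates 1 to 4 and 13.71, 12.98, 17.32 and 12.88 in HET. HET lay below both held-out WT libraries, while HET replicate 3 lay above WT replicate 2, which chose the member. The log2 change was -1.01 (SE 0.184, adjusted p = 0.0206, edgeR) and was -0.64 in CB (SE 0.166, adjusted p = 0.354). The call was lost without HET CC replicate 2 (adjusted p = 0.0623) or WT CC replicate 4 (0.135). The Sox4 promoter peak, chr13:28953510-28954010, 61 bp from the gene of an HMG-box transcription factor needed in early B cell development, stood at 37.40, 38.63, 49.78 and 46.39 CPM in WT CC and 35.82, 18.06, 31.45 and 24.81 in HET CC. All HET values lay below those of WT replicates 3 and 4, the libraries tested (log2 -0.86, SE 0.172, adjusted p = 0.0291). This call was lost without HET replicate 2 (0.0972) or 4 (0.08) or WT replicate 3 (0.114) or 4 (0.132). With the library total as a covariate the Sox4 change was 0.11 (adjusted p = 0.969) and that of the Sub1 peak -0.52, which did not pass. Next in order was a Pcbp3 peak 159 bp from a gene end, at 55.10 and 60.78 CPM in WT CC replicates 3 and 4 and 49.36, 35.45, 45.01 and 31.25 in HET CC (-0.57, SE 0.131, adjusted p = 0.0631).

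**Figure D5:**
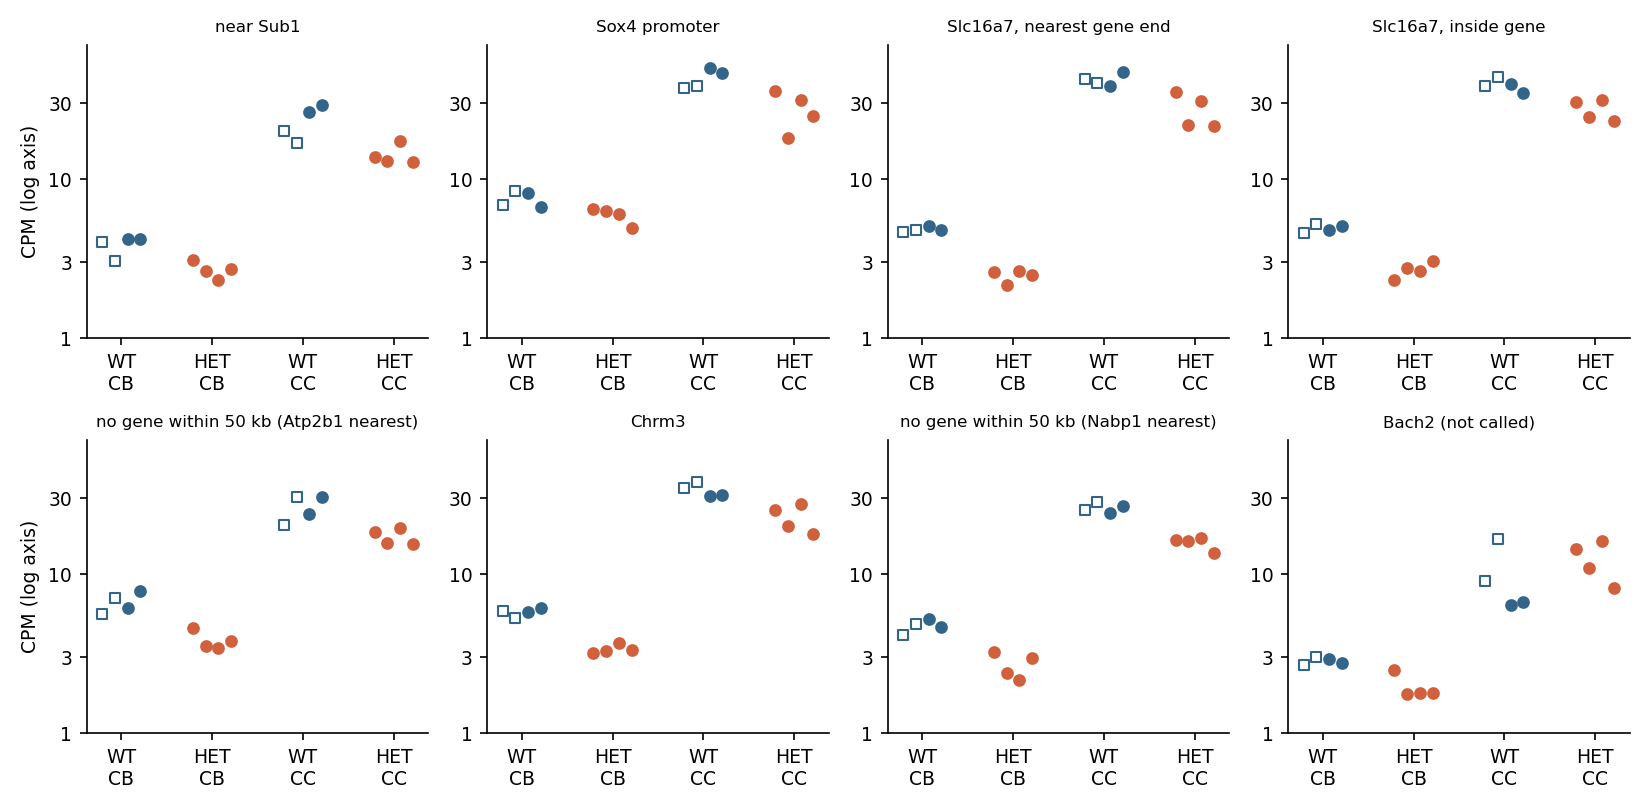
CPM on a log axis of the 7 members called lower in HET CC (near Sub1, Sox4 promoter) or HET CB (the others but Bach2), and of the Bach2 peak that was not called, in each library of WT CB, HET CB, WT CC and HET CC; filled circles are libraries tested and open squares the WT libraries that chose the members. At Slc16a7 and Chrm3 the HET CB values lie below the tested WT CB values, and at Bach2 the held-out WT CC values (6.43 and 6.67) lie below the HET CC values.

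By edgeR, the genotype effect was not shown to differ between the cell states at any of the 957 members. The interaction, which subtracts the CB effect of HET from its CC effect, gave 0 higher calls (0.00122% of all peaks were called higher) and 0 lower (0.0% of all peaks). At an unadjusted p below 0.05, 29 of the 957 members were higher and 24 lower, against 4594 higher and 2906 lower of all 82188 peaks. DESeq2 called 1 higher, of 526 members with an adjusted p. The median was 0.02, where all peaks had 0.03 and the closing peaks 0.36. The smallest p belonged to a peak inside Bach2, which encodes a repressor that keeps B cells from becoming plasma cells (chr4:32343664-32344164, 105501 bp from a gene end). It stood at 9.01, 16.60, 6.43 and 6.67 CPM in WT CC and 14.40, 10.97, 16.19 and 8.16 in HET CC, and at 2.67, 3.00, 2.94 and 2.78 in WT CB and 2.48, 1.76, 1.79 and 1.78 in HET CB. HET was thus above the held-out WT libraries in CC but within the range of all 4, and below them in CB (interaction 1.43, SE 0.367, adjusted p = 0.228, edgeR). The next were the Pcbp3 peak (-0.60, adjusted p = 0.24) and a peak of Gm38457 (-0.41, 0.302).

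Among the list members, the HET changes had the direction of the members at large, and none passed. All 9 T cell marker members had a log2 change below 0 in CB (median -0.42) and 8 in CC (-0.40). The Themis promoter peak, at a gene of T cell receptor signaling, stood at 1.52 and 1.78 CPM in WT CB replicates 3 and 4 and 1.27, 0.49, 0.77 and 0.61 in HET CB (-1.09, SE 0.292, adjusted p = 0.36, edgeR). All 4 NK cell marker members were below 0 in CB (median -0.80) and 3 in CC (-0.33). The exception was the Nkg7 promoter peak, at 6.71 and 8.53 CPM in WT CC and 6.86, 9.90, 8.85 and 7.69 in HET CC (log2 0.10, adjusted p = 0.927). Migration members were below 0 in 13 of 14 cases in CB (median -0.37) and 12 in CC (-0.33), memory and naive members in 11 of 11 (-0.20) and 10 (-0.41), and lymphoid transcription factor members in 23 of 25 (-0.39) and 22 (-0.28). At Prkch all 3 were below 0 in both states, the largest being -0.94 in CB (adjusted p = 0.364) at a peak 8734 bp from the gene end. Prdm1 stood at 4.15 and 4.70 CPM in WT CB and 4.49, 4.02, 4.67 and 4.59 in HET CB, which overlap (log2 0.01, adjusted p = 1.0).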

How the data were processed

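Omni-ATAC counts were analysed in 16 libraries. The authors deposited whole-number read counts per peak for 82188 peaks of 501 bases. FastQC, BWA, deepTools and R 4.2.1, with the build mm10, are listed in the submitters' processing notes. The peak caller and how peaks were merged are not given in the sources used here. CPM was computed from each library's total count in peaks, with no scaling, and fold changes came from a fit with TMM scaling. The tests used edgeR 4.0.16 (quasi-likelihood, robust, R 4.3.3) on 12 libraries with 1 mean for each group, and p-values were adjusted by Benjamini-Hochberg across every peak. The edgeR filter on low counts removed 0 peaks, so all 957 members were tested. Since WT replicates 1 and 2 chose the members, they entered no test except where WT pairs were swapped as an alternative.

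Peaks were assigned to the nearest protein-coding gene of RefSeq GRCm38.p6 within 50 kb. Named peaks were the 8 largest WT openings among members called in both genotypes whose CC and CB values did not overlap, up to 6 members called per direction in each genotype comparison (with fewer than 3 called, the 3 smallest p-values), up to 2 members per gene list with the smallest p for opening, all members of the 4 genes with most members and of 1 tied with them, and 2 peaks on each side of each threshold. A few others named were picked after values were seen, and some items the rule names are not reported here. The members and lists were chosen with earlier results of these data known. Alternatives included DESeq2 1.42.0, other scalings, a stricter filter, other thresholds and leaving out each library. On simulated counts of HET against WT in CC over 82188 peaks, 4% of 1.5-fold and 40% of 2-fold changes were recovered with 0 false calls. The simulation gave every peak the same spread and a mean pooled over CB and CC, and the changed peaks were picked at random. It held no split among replicates and no effect of library total, so these rates need not hold for members in the real CC libraries.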

Additional observations from a re-analysis of the deposited data

Results flagged for a closer look

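Among 136 groups of 4 libraries at the named peaks, 6 held 1 library far from the other 3, by a test that flags about 1 in 20 groups by chance. The Bach2 peak was high in HET CB replicate 1 (2.48 CPM). The Cobll1 peak 1498 bp from the gene end was high in HET CC replicate 1 (16.62 CPM), and the Cobll1 promoter peak was low in HET CB replicate 3 (8.76 CPM). The Maml3 peak 14165 bp from a gene end was high in HET CC replicate 3 (7.53 CPM). Of the Gpr132 peaks, one 4221 bp from a gene end was high in HET CB replicate 3 (6.35 CPM), and another, 8281 bp from one, was high in HET CB replicate 4 (3.29 CPM).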

How the results depend on the processing

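The members' median opening and genotype changes kept their direction in each setting run but 1, while the interaction median, near 0, took either sign. With the log2 library total as a covariate, the members' CC median turned to 0.221, the Sox4 change to 0.11, the CB median became -0.156, the interaction median 0.374, the WT opening 1.973, and 0% were called lower in CC and 0% in CB. This covariate and the splits of HET replicates 1 and 3 from 2 and 4 were chosen after seeing the data. This covariate and the splits of HET replicates 1 and 3 from 2 and 4 were chosen after seeing the data. The percent of members called lower in CC, 0.209 in the reported fit, was 5.9 with DESeq2, 0 with HET replicates 1 and 3, 13.1 with 2 and 4, 0 with 3 and 4, 2.54 with the WT pairs swapped, 0.104 with the replicate block and 0.704 at a threshold of 20 CPM. The percent called higher in CC was 0.102 with the WT pairs swapped. The percent called lower in CB, 0.522 in the reported fit, was 2.72 with DESeq2, 0.209 with HET replicates 1 and 3, 2.09 with 2 and 4, 0 with 3 and 4, 0.838 with at least 10 counts in every library, 0 with the WT pairs swapped, 2.3 with only the groups compared, 0 with the replicate block, 0.268 at a choosing fold of 2 and 3.52 at 20 CPM. For the interaction, 0.19% were called higher with DESeq2 and 0.104% lower with HET replicates 2 and 4. Choosing thresholds moved the medians: the WT opening was 1.597 at a fold of 2, 2.519 at a fold of 4 and 2.019 at 20 CPM, the HET opening 1.456 and 2.551 at folds of 2 and 4, and the CB median -0.22 at a fold of 2. Leaving out 1 library gave WT opening medians of 2.192 to 2.289 (97.1 to 99.8% called), HET opening medians of 2.133 to 2.293, CB medians of -0.397 to -0.326 (0 to 0.731% lower), CC medians of -0.43 to -0.285 (0 to 2.82% lower) and interaction medians of -0.078 to 0.089. The replicate numbers were not treated as pairs in the reported fit. Same-numbered CB and CC libraries deviated together only weakly (correlations of 0.032 to 0.074). Few counts per peak in CC libraries (medians of 22 to 50) can hold such correlations low, so they do not show whether the numbers are pairs. At the members, HET replicates 2 and 4 were lowest both in CB (medians of -0.41 and -0.44) and in CC (-0.47 and -0.58), so the 2 states may not be separate evidence. With the replicate block the medians were -0.377 in CC and -0.373 in CB. The fit of only the groups compared gives no interaction. A median member held 46 to 67 counts in a tested CC library, which limits the precision of single peaks there.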
